A study of Homo sapiens with 20 samples.

Results

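The genes described here are 34 genes of DNA replication and origin licensing, out of 19775 genes read by the arrays. They were chosen by name, as symbols of the replication machinery, but with earlier results of these data known. Their counts beside the shares of all genes are therefore descriptive. Each gene is represented by the brightest probe set that the array annotation assigns to it alone. All 34 had such a probe set, and 17 of them had 28 further probe sets, which serve as a check. Affymetrix 3′ arrays measured RNA from 2 prostate cancer cell lines of human origin, LNCaP and its castration-resistant derivative C42B. RNA interference against LSD1, a demethylase of histone lysines and the product of KDM1A, was compared with a non-targeting control label (siLSD1 and siNTC, 3 arrays per group and line), and C42B cells were separately exposed to the androgen dihydrotestosterone (DHT) or to ethanol vehicle (4 arrays per group).

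C42B cells for the siRNA experiment were plated in serum (FBS), exposed to siLSD1 or siNTC for 6 h and grown for 96 h with 10% charcoal-stripped serum (CSS), which is poor in steroids. LNCaP cells received siLSD1 or siNTC at 50 nM and were grown for 96 h with 10% FBS, and pairs of wells were pooled for each biological replicate. In the androgen experiment 72 h in CSS preceded 16 h of 100 nM DHT or vehicle. With 1 siLSD1 label per line, what lower LSD1 does and what the siRNA sequence itself does cannot be told apart. The p-values measure the spread between these arrays, since it is not stated throughout that replicates came from independent cultures.

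Replication origins are licensed in G1, when the origin recognition complex, CDC6 and CDT1 load the ring-shaped MCM helicase onto DNA. At the start of S phase kinases convert the loaded ring into the active CMG helicase with CDC45 and GINS, after which primase, the replicative polymerases, the PCNA clamp and its loader copy the strands. Most of these genes are transcribed in late G1 and S phase under E2F factors, and their transcripts are abundant in proliferating tumour cells. In bulk RNA, fewer cells in S phase and less of each transcript per cell cannot be told apart.

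The median deposited intensity per array was 78.4 to 81.2 for C42B siRNA, 84.1 to 86.1 for DHT and vehicle, and 63.3 to 65.1 for LNCaP, so levels are set side by side only within an experiment. The log2 difference between replicate arrays, taken pair by pair, had an SD of 0.13 to 0.21 over all probe sets. KDM1A was 7.80, 7.83 and 8.03 in C42B siLSD1 arrays, against 10.21, 10.29 and 10.36 in siNTC arrays (log2 intensity). The LNCaP levels were 7.25, 7.26 and 7.40 with siLSD1, against 9.95, 10.05 and 10.23 with siNTC. The targeted transcript was thus 81.1% lower in C42B and 85.4% lower in LNCaP, without overlap (limma adjusted p = 1.2e-05 and 2.4e-06), and the exact permutation p of 0.1 in each line was the smallest that 3 against 3 arrays allow. With DHT, KDM1A was 10.24 at the lowest, 10.28 at the median and 10.36 at the highest, against 10.10, 10.14 and 10.16 with vehicle (log2 fold change 0.16 ± 0.04, adjusted p = 0.020 by limma), with an exact permutation p of 0.0286, the smallest for 4 against 4. That small rise missed the threshold without vehicle replicate 4 (adjusted p = 0.057).

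Cell identity markers were read as a check on the labels. All 7 measured markers of the prostate luminal lineage were bright, that is, at or above a log2 intensity of 6, in every group. In every group 3 of the 5 stromal and 1 of the 3 endothelial markers were below 6, so the others were bright too. In C42B siLSD1 the stromal COL1A1 (8.36) was brighter than the luminal FOLH1 (7.95). Brightness alone therefore does not tell these lists apart. With siLSD1, 3 of the 7 passed higher in each line and none lower, namely the androgen-responsive genes KLK2 (log2 fold change 0.74 in C42B and 0.40 in LNCaP), KLK3 (0.40 and 0.36) and TMPRSS2 (0.77 in both). With DHT all 7 passed, 5 of them higher, namely KLK2 (5.19), TMPRSS2 (3.08), KLK3 (2.74), KRT8 (1.38) and KRT18 (0.82), and 2 lower, HOXB13 (−0.49) and FOLH1 (−0.55). Of 11 measured stromal, endothelial and leukocyte markers, none passed with siLSD1 in C42B, and COL3A1, a stromal collagen, was the only one to pass in LNCaP (log2 fold change −0.77) and with DHT (at least 1.20 lower, counted from 6, since the DHT mean was below 6). The 5 stromal markers summed to a log2 intensity of 8.98 to 9.26 in C42B siLSD1 and 9.17 to 9.25 in siNTC, 8.63 to 8.77 in LNCaP siLSD1 and 8.75 to 8.89 in siNTC, and 9.29 to 9.47 with DHT and 9.50 to 9.74 with vehicle. The part of these markers in the results was not tested. RNA integrity was read from the actin control as 3′ minus 5′ log2 signal, which was 1.17 to 1.31 in C42B siLSD1 against 1.13 to 1.19 in siNTC, 0.93 to 1.09 in LNCaP siLSD1 and 0.82 to 0.98 in siNTC, and 0.91 to 1.16 with DHT and 0.90 to 1.12 with vehicle. These ranges overlap in each experiment.

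The replication genes as a list fell with siLSD1 in both lines, whereas with DHT their median stayed near that of all genes. A gene passed when its limma adjusted p over 19775 genes was under 0.05. In C42B, 27 of 34 passed lower and 0 higher with siLSD1, where 9.39% of all genes passed lower and 8.66% higher. Their median log2 fold change was −0.35, against −0.02 over all genes. In LNCaP all 34 passed lower, where 12.5% of all genes passed lower and 13.4% higher, with a median of −0.94 against 0.01 over all genes, also with CLSPN, whose siLSD1 level was dim, at its bound. With DHT, 4 passed lower and 11 higher, where 19.4% of all genes passed lower and 13.4% higher, and the median was −0.01 against 0.01 over all genes.

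**Figure D1:**
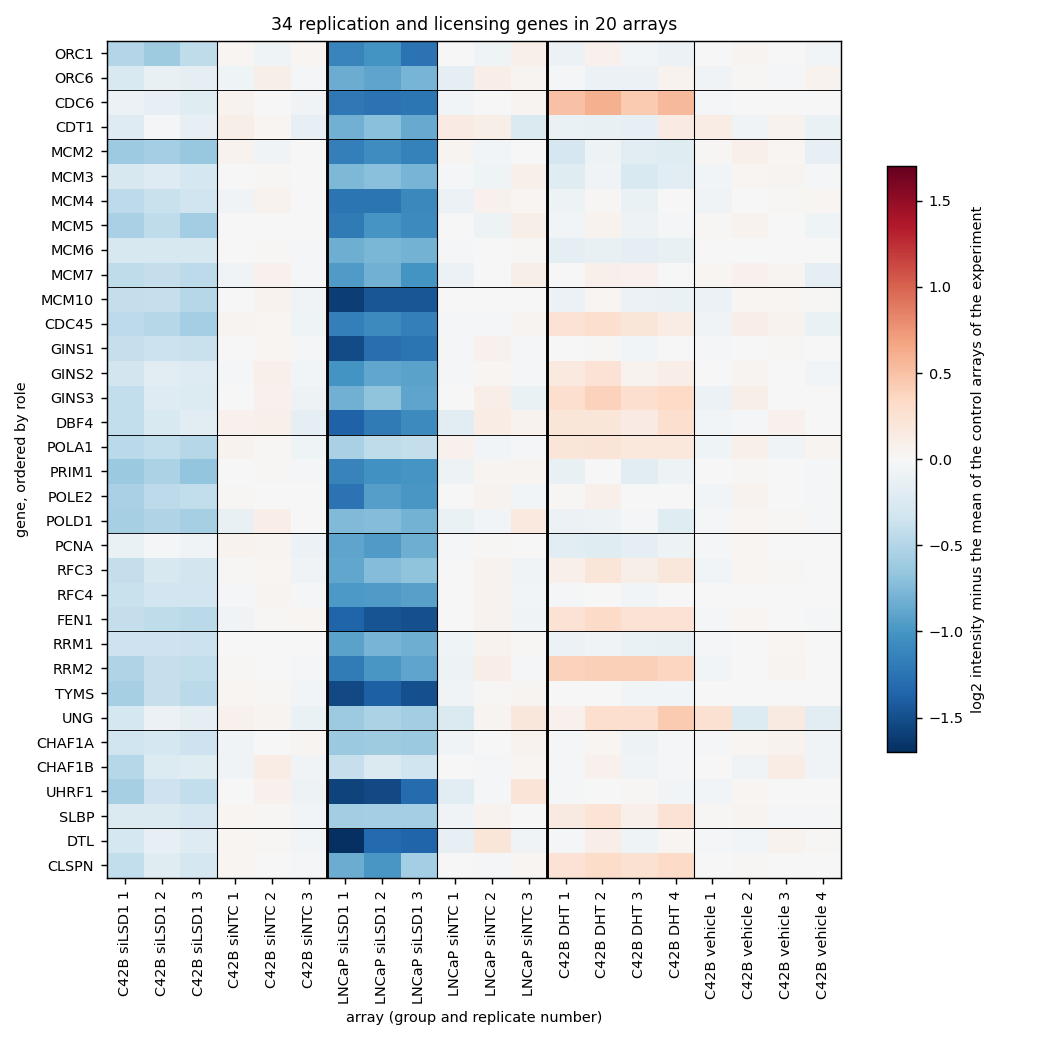
Log2 intensity of each of the 34 genes (rows, by role) in each of the 20 arrays (columns, by group), minus the mean of that gene's control group in the same experiment. All 34 genes fell in LNCaP siLSD1 arrays, the C42B siLSD1 arrays show smaller falls, and the DHT arrays show a mixture.

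Over the 34 genes, single arrays gave the same picture. The median gene lay 0.41, 0.34 and 0.34 below the siNTC mean in the 3 C42B siLSD1 arrays, with siNTC arrays between −0.03 and 0.03. In LNCaP the 3 siLSD1 arrays lay 0.99, 0.96 and 0.91 below, with siNTC arrays between −0.03 and 0.03. The 4 DHT arrays lay between −0.04 and 0.07 and the 4 vehicle arrays between −0.02 and 0.03, so the DHT arrays did not shift as a group.

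**Figure D2:**
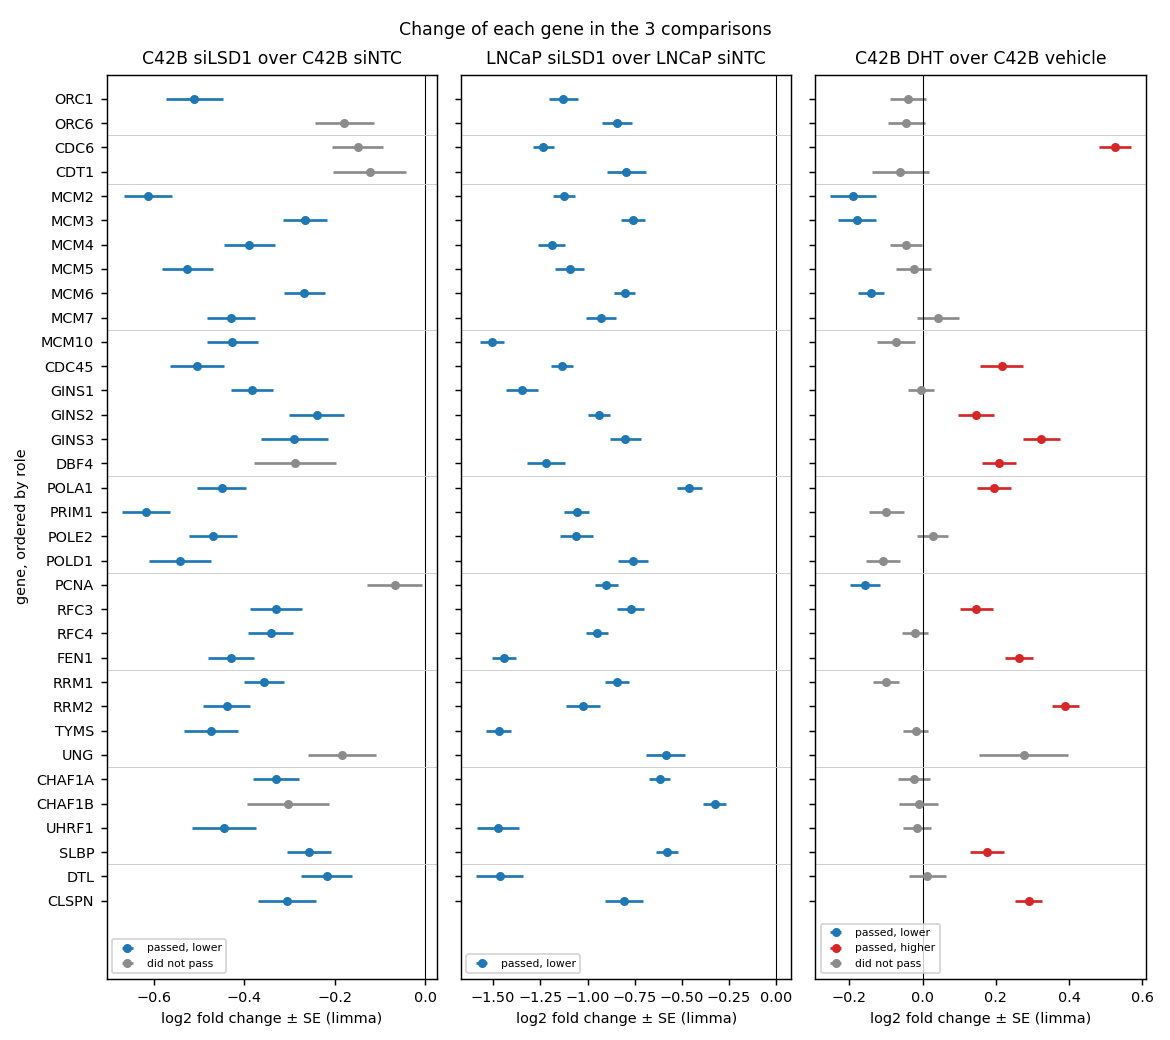
Log2 fold change of each gene with its limma SE, for siLSD1 over siNTC in C42B (left), siLSD1 over siNTC in LNCaP (middle) and DHT over vehicle in C42B (right), with genes ordered by role and a separate horizontal scale in each panel. C42B changes run from −0.62 to −0.07, LNCaP changes from −1.51 to −0.33 and DHT changes from −0.19 to 0.52.

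The siRNA arrays of C42B address what loss of LSD1 does to these transcripts in steroid-poor medium. All 34 genes had a negative log2 fold change, from −0.62 for PRIM1 to −0.07 for PCNA, and 31 were lower in every siLSD1 array than in any siNTC array, as were 19.9% of all genes. The 7 that did not pass were ORC6, CDC6, CDT1, DBF4, PCNA, UNG and CHAF1B. Of the 27 calls, 21 held in each of 14 alternative analyses. All of the 7 except PCNA passed lower in at least 1 of those analyses. The calls of MCM6, GINS2, GINS3, SLBP, DTL and CLSPN were lost in at least 1 of them, those of GINS2, GINS3, SLBP, DTL and CLSPN without siLSD1 replicate 3 among others, when 22 genes passed.

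The LNCaP arrays address the same question in full serum. Each of the 34 genes was lower in every siLSD1 array than in any siNTC array, as were 19.5% of all genes, and the falls ran from −1.51 for MCM10 to −0.33 for CHAF1B. All 34 calls held in each of 14 alternatives. CLSPN was the only gene with a dim group, at 5.44 ± 0.21 (SD, n = 3) with siLSD1, against 6.24 ± 0.03 (SD, n = 3) with siNTC, so its fall is given as at least 0.24 on the log2 scale, counted from 6.

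The androgen arrays address how DHT acts on these genes in C42B after steroid depletion. CDC6 (0.52), RRM2 (0.39), GINS3 (0.32), CLSPN (0.29), FEN1 (0.26), CDC45 (0.22), DBF4 (0.21), POLA1 (0.19), SLBP (0.18), RFC3 (0.15) and GINS2 (0.15) passed higher (log2 fold change). MCM2 (−0.19), MCM3 (−0.18), PCNA (−0.16) and MCM6 (−0.14) passed lower, and the other 19 did not pass. In every DHT array against any vehicle array, 5 genes were lower and 11 higher, as were 20.6% and 14.0% of all genes, and 18 overlapped. Of the 15 calls, 9 held in each of 16 alternatives, namely CDC6, RRM2, GINS3, CLSPN, FEN1, DBF4, POLA1, MCM6 and PCNA. The number passing lower dropped to 2 without DHT replicate 1, 3 or 4, and likewise without vehicle replicate 2 or 3, because MCM2 and MCM3 then missed the threshold.

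The 2 siRNA experiments were then compared through a contrast of their effects over 12 arrays, C42B minus LNCaP, in which a positive value is a larger fall in LNCaP. Of the 34 genes, 30 passed higher and 0 lower, where 5.56% of all genes passed higher and 6.06% lower, with a median difference of 0.59 against −0.02 over all genes. CLSPN is 1 of the 30, but its LNCaP fall is known only as at least 0.24, less than its C42B fall of 0.31, so which line fell more is not settled for it. The other 33 all fell more in LNCaP, 29 of them past the threshold, and their median ratio of the log2 effects, C42B over LNCaP, was 0.36, from 0.075 for PCNA to 0.97 for POLA1. The difference did not pass for POLA1 (0.01, 95% interval −0.17 to 0.20), CHAF1B (0.02, −0.22 to 0.27), POLD1 (0.22, −0.02 to 0.45) and UNG (0.40, 0.11 to 0.70). The differences of CHAF1A, RFC3 and CLSPN passed but were lost in some alternatives. KDM1A itself differed by 0.37 ± 0.12, with the larger fall in LNCaP (adjusted p = 0.063 by limma). The experiments also differ in serum, plating, transfection and median array intensity, and whether their arrays were normalized together is not stated. Line, culture conditions and array set therefore cannot be told apart.

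Across those 33 genes the C42B and LNCaP effects were weakly related, with Pearson's r of 0.29 and Spearman's rho of 0.30. The points are genes, which share the same arrays within a line and are not independent replicates. MCM10, TYMS, UHRF1, DTL and FEN1 fell by 1.44 to 1.51 in LNCaP and by 0.22 to 0.47 in C42B. PRIM1 and MCM2, with the largest falls in C42B (−0.62 and −0.61), stood at −1.06 and −1.12 in LNCaP, not far from the median of −0.94.

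**Figure D3:**
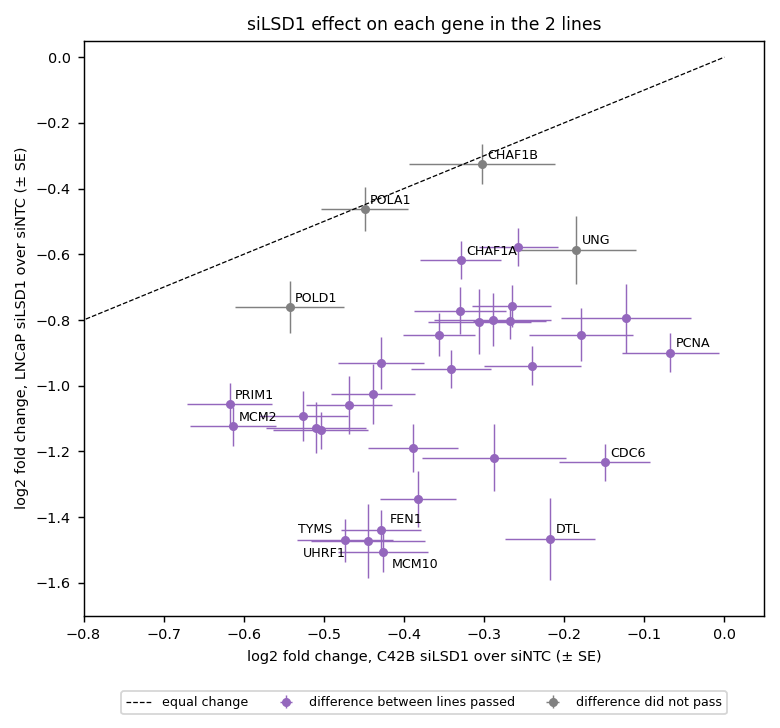
Log2 fold change of siLSD1 over siNTC in LNCaP (vertical) against C42B (horizontal) for the 34 genes, with limma SE on both axes and the dashed line at equal change. All 34 points lie below the line, that of CLSPN by a dim LNCaP level that gives only a bound; POLA1 and CHAF1B lie closest to it, and DTL, CDC6 and PCNA fell far more in LNCaP.

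Origin recognition was represented by ORC1 and ORC6, subunits of the complex that marks origins. ORC1 was 7.24, 7.14 and 7.31 in C42B siLSD1 arrays, against 7.77, 7.67 and 7.77 in siNTC arrays (log2 fold change −0.51 ± 0.06, adjusted p = 0.0020 by limma). LNCaP arrays read 6.27, 6.38 and 6.14 with siLSD1, against 7.38, 7.31 and 7.48 with siNTC (−1.13 ± 0.08, adjusted p = 3.3e-05). Neither line's groups overlapped. ORC6 passed in LNCaP (−0.84 ± 0.08) but not in C42B (−0.18 ± 0.07, adjusted p = 0.11). Neither gene passed with DHT, at −0.04 each.

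CDC6, the ATPase that joins the origin recognition complex to load the helicase, showed opposite directions with siLSD1 in LNCaP and with DHT in C42B. With DHT it was 10.18, 10.29, 10.13 and 10.23, against 9.67, 9.69, 9.70 and 9.68 with vehicle, a 1.44-fold rise (log2 fold change 0.52 ± 0.04, adjusted p = 1.3e-05 by limma). Each DHT array stood above each vehicle array by more than the spread within either group. In LNCaP it was 7.95, 7.91 and 7.94 with siLSD1, against 9.13, 9.16 and 9.22 with siNTC, 57.5% lower (−1.23 ± 0.06, adjusted p = 7.9e-06). In C42B the siLSD1 arrays read 9.14, 9.09 and 9.03, against 9.30, 9.23 and 9.18 with siNTC, without overlap but short of the threshold (−0.15 ± 0.06, adjusted p = 0.12). A second CDC6 probe set did pass there (−0.41, adjusted p = 0.0059), and it rose with DHT by 0.51.

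CDT1, the factor that brings the MCM ring to origins, fell in LNCaP by 0.79 ± 0.10 on the log2 scale and did not pass with DHT (−0.06 ± 0.08). In C42B its brightest probe set read 8.20, 8.40 and 8.28 with siLSD1, against 8.52, 8.45 and 8.28 with siNTC, and the groups overlapped (−0.12 ± 0.08, adjusted p = 0.35 by limma). Its second probe set passed in that comparison (−0.54 ± 0.07, adjusted p = 0.0031), so the C42B result for CDT1 depends on the probe set.

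The 6 subunits of the MCM ring, the core of the replicative helicase, all passed lower with siLSD1 in both lines, with a median of −0.41 in C42B and −1.01 in LNCaP. MCM2 was 10.97, 11.00 and 10.93 in C42B siLSD1 arrays, against 11.64, 11.51 and 11.59 in siNTC arrays, 34.6% lower (log2 fold change −0.61 ± 0.05, adjusted p = 0.00060 by limma). The LNCaP levels were 9.89, 9.99 and 9.89 with siLSD1, against 11.09, 11.00 and 11.04 with siNTC, 54.1% lower (−1.12 ± 0.06, adjusted p = 1.3e-05). Both sets of groups stand apart without overlap. The other subunits ran from −0.27 (MCM3 and MCM6) to −0.53 (MCM5) in C42B and from −0.76 (MCM3) to −1.19 (MCM4) in LNCaP.

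With DHT, 3 of the 6 subunits of the MCM ring passed lower and 0 higher, where 19.4% of all genes passed lower and 13.4% higher. MCM6 was 11.67, 11.71, 11.68 and 11.70 with DHT, against 11.84, 11.84, 11.84 and 11.82 with vehicle (log2 fold change −0.14 ± 0.03, adjusted p = 0.012 by limma). MCM3 was 11.21, 11.37, 11.17 and 11.23 with DHT, against 11.38, 11.46, 11.46 and 11.39 with vehicle (−0.18 ± 0.05, adjusted p = 0.027). These 2 sets of arrays did not overlap, though for MCM3 the gap between the nearest arrays was narrow. MCM2 was 11.21, 11.41, 11.32 and 11.29 with DHT, against 11.52, 11.59, 11.53 and 11.35 with vehicle, and here the groups overlapped (−0.19 ± 0.06, adjusted p = 0.043). The calls of MCM2 and MCM3 were both lost without DHT replicate 1, among other arrays. MCM4, MCM5 and MCM7 did not pass, at −0.05, −0.02 and 0.04.

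Helicase activation, the step at which loaded rings become moving forks, had a median fall of −0.34 in C42B and −1.18 in LNCaP (log2 fold change). MCM10, a factor needed for origin firing, was 7.49, 7.63 and 7.63 in LNCaP siLSD1 arrays, against 9.09, 9.08 and 9.10 in siNTC arrays, 64.8% lower (log2 fold change −1.51 ± 0.06, adjusted p = 7.1e-06 by limma). In C42B it was 9.58, 9.60 and 9.51 with siLSD1, against 9.98, 10.05 and 9.93 with siNTC (−0.43 ± 0.06, adjusted p = 0.0026). No arrays overlapped in either line. CDC45, part of the CMG helicase, fell by 0.50 ± 0.06 in C42B and by 1.14 ± 0.06 in LNCaP. The GINS subunits GINS1, GINS2 and GINS3 fell by 0.38, 0.24 and 0.29 in C42B and by 1.34, 0.94 and 0.80 in LNCaP. DBF4, the activating subunit of the CDC7 kinase, fell in LNCaP (−1.22 ± 0.10) and did not pass in C42B (−0.29 ± 0.09, adjusted p = 0.068).

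Of these 6 activation genes, 4 passed higher and 0 lower with DHT, where 13.4% of all genes passed higher and 19.4% lower. GINS3 was 8.89, 8.99, 8.89 and 8.94 with DHT, against 8.50, 8.71, 8.60 and 8.60 with vehicle (log2 fold change 0.32 ± 0.05, adjusted p = 0.00099 by limma), and a second GINS3 probe set rose by 0.40. DBF4 was 11.02, 11.02, 10.95 and 11.10 with DHT, against 10.76, 10.78, 10.89 and 10.82 with vehicle (0.21 ± 0.05, adjusted p = 0.0069). For both genes every DHT array exceeded every vehicle array. CDC45 (0.22 ± 0.06, adjusted p = 0.020) and GINS2 (0.15 ± 0.05, adjusted p = 0.046) also passed, but CDC45 missed the threshold without DHT replicate 1 or 2 or vehicle replicate 1 or 4, and GINS2 without any single array other than DHT replicate 3. GINS1 (−0.01) and MCM10 (−0.07) did not pass, although another MCM10 probe set passed lower (−0.22, adjusted p = 0.0036).

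**Figure D4:**
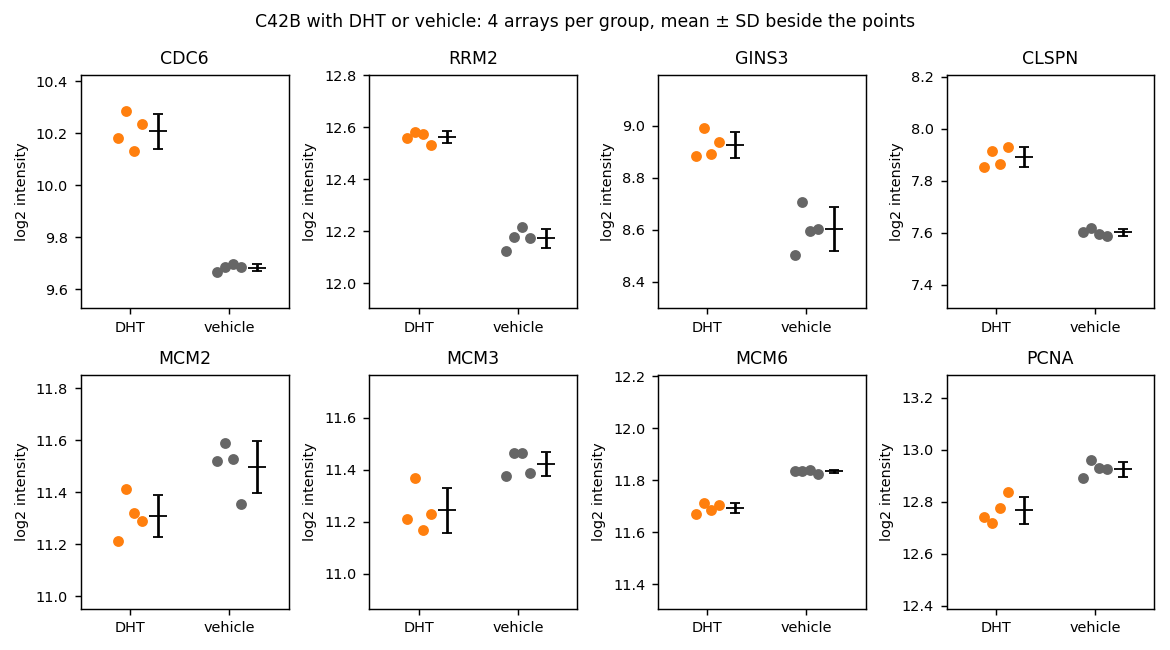
Log2 intensity in each DHT array (left in each pair) and vehicle array (right) for 8 genes that passed with DHT in C42B, with the mean ± SD beside the points and a separate scale in each panel. CDC6, RRM2, GINS3 and CLSPN sit above their vehicle arrays and MCM3, MCM6 and PCNA below, while the MCM2 arrays overlap.

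Primase and the polymerases start and extend the new strands, and this role held the largest C42B falls, with a median of −0.51. PRIM1, the catalytic primase subunit, was 9.86, 9.95 and 9.82 in C42B siLSD1 arrays, against 10.49, 10.51 and 10.47 in siNTC arrays, 34.8% lower (log2 fold change −0.62 ± 0.05, adjusted p = 0.00057 by limma). LNCaP arrays read 8.02, 8.13 and 8.16 with siLSD1, against 9.08, 9.20 and 9.20 with siNTC (−1.06 ± 0.07, adjusted p = 2.3e-05). The groups were far apart in both lines. POLE2, a subunit of polymerase epsilon, fell by 0.47 in C42B and 1.06 in LNCaP, and POLD1, the catalytic subunit of polymerase delta, by 0.54 and 0.76.

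POLA1, the catalytic subunit of polymerase alpha, was the gene whose falls were nearest to equal in the lines. It was 9.43, 9.47 and 9.41 in C42B siLSD1 arrays, against 9.94, 9.90 and 9.82 in siNTC arrays (log2 fold change −0.45 ± 0.05, adjusted p = 0.0019 by limma). In LNCaP it was 7.99, 8.12 and 8.14 with siLSD1, against 8.62, 8.50 and 8.53 with siNTC (−0.46 ± 0.07, adjusted p = 0.0013). It was also the only gene of this role to pass with DHT, at 9.50, 9.52, 9.47 and 9.47, against 9.23, 9.38, 9.23 and 9.33 with vehicle (0.19 ± 0.05, adjusted p = 0.010). PRIM1 (−0.10), POLE2 (0.03) and POLD1 (−0.11) did not pass with DHT.

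PCNA, the sliding clamp that tethers polymerases to DNA, had the smallest C42B change of the list. It was 12.38, 12.47 and 12.43 with siLSD1, against 12.55, 12.54 and 12.39 with siNTC, and the groups overlapped (log2 fold change −0.07 ± 0.06, adjusted p = 0.51 by limma). The LNCaP levels were 11.73, 11.66 and 11.79 with siLSD1, against 12.60, 12.65 and 12.63 with siNTC, 46.4% lower (−0.90 ± 0.06, adjusted p = 2.7e-05). The difference between the lines was 0.83 ± 0.08 (adjusted p = 7.7e-05). With DHT it was 12.74, 12.72, 12.78 and 12.84, against 12.89, 12.96, 12.93 and 12.92 with vehicle, lower in every array by a small step (−0.16 ± 0.04, adjusted p = 0.015).

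FEN1, the nuclease that trims the flaps of Okazaki fragments, went the other way with DHT. Its DHT arrays read 12.25, 12.33, 12.25 and 12.25, against 11.99, 12.04, 12.02 and 11.99 with vehicle (log2 fold change 0.26 ± 0.04, adjusted p = 0.00054 by limma), and its second probe set rose by 0.39. With siLSD1 it fell by 0.43 ± 0.05 in C42B and by 1.44 ± 0.06 in LNCaP. The clamp loader subunits RFC3 and RFC4 fell by 0.33 and 0.34 in C42B and by 0.77 and 0.95 in LNCaP. With DHT, RFC3 passed higher (0.15 ± 0.04, adjusted p = 0.033), a call lost without DHT replicate 2 or 4 or vehicle replicate 1, 3 or 4, and RFC4 did not pass (−0.02 ± 0.03).

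The nucleotide supply genes included both subunits of ribonucleotide reductase, which differed with DHT. RRM2, the small subunit whose level limits the enzyme in S phase, was 12.56, 12.58, 12.58 and 12.53 with DHT, against 12.12, 12.18, 12.22 and 12.17 with vehicle, a 1.31-fold rise (log2 fold change 0.39 ± 0.04, adjusted p = 3.9e-05 by limma). RRM1, the large subunit, was 12.19, 12.22, 12.16 and 12.15 with DHT, against 12.27, 12.28, 12.31 and 12.27 with vehicle (−0.10 ± 0.04, adjusted p = 0.065). The RRM1 arrays did not overlap, yet the gene did not pass. With siLSD1, RRM1 and RRM2 fell by 0.36 and 0.44 in C42B and by 0.84 and 1.02 in LNCaP.

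TYMS, thymidylate synthase, was 10.65, 10.80 and 10.69 in LNCaP siLSD1 arrays, against 12.12, 12.21 and 12.23 in siNTC arrays, 63.9% lower (log2 fold change −1.47 ± 0.06, adjusted p = 7.2e-06 by limma). In C42B it was 12.34, 12.51 and 12.45 with siLSD1, against 12.93, 12.93 and 12.85 with siNTC (−0.47 ± 0.06, adjusted p = 0.0023). With DHT it did not pass (−0.02 ± 0.04). UNG, the glycosylase that removes uracil from DNA, fell in LNCaP (−0.59 ± 0.10, adjusted p = 0.0036) and passed neither in C42B (−0.18 ± 0.07) nor with DHT (0.28 ± 0.12, adjusted p = 0.12), where its vehicle arrays spread from 10.00 to 10.49. Without vehicle replicate 1, UNG passed higher with DHT (0.36, adjusted p = 0.042).

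Among genes for chromatin behind the fork, UHRF1, which binds hemimethylated DNA and recruits DNMT1, fell most. It was 8.05, 8.09 and 8.31 in LNCaP siLSD1 arrays, against 9.44, 9.59 and 9.84 in siNTC arrays (log2 fold change −1.47 ± 0.11, adjusted p = 5.2e-05 by limma). In C42B it was 9.61, 9.82 and 9.75 with siLSD1, against 10.18, 10.24 and 10.09 with siNTC (−0.45 ± 0.07, adjusted p = 0.0058). CHAF1A and CHAF1B are subunits of the CAF-1 histone chaperone. CHAF1A fell by 0.33 in C42B and 0.62 in LNCaP by its brightest probe set, whereas another bright one gave −0.06 in C42B, short of the threshold (adjusted p = 0.70), and −0.96 in LNCaP, a difference between lines of 0.90 against 0.29. CHAF1B fell by 0.33 in LNCaP, with −0.30 ± 0.09 in C42B short of the threshold (adjusted p = 0.059). SLBP, which binds the stem-loop of histone mRNAs, fell by 0.26 in C42B and 0.58 in LNCaP and was the only gene of this role to pass with DHT (0.18 ± 0.05, adjusted p = 0.018), a call lost without vehicle replicate 3.

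DTL, the receptor through which the CRL4 ubiquitin ligase degrades CDT1 at the fork, had the largest difference between lines among the 33 genes measured in both. It was 8.28, 8.67 and 8.64 in LNCaP siLSD1 arrays, against 9.85, 10.20 and 9.93 in siNTC arrays (log2 fold change −1.47 ± 0.13, adjusted p = 8.9e-05 by limma). In C42B it was 9.71, 9.86 and 9.79 with siLSD1, against 10.03, 10.02 and 9.96 with siNTC (−0.22 ± 0.06, adjusted p = 0.035). The difference of 1.25 ± 0.15 passed (adjusted p = 0.00025), but the C42B call was lost without siLSD1 replicate 1 or 3 or any siNTC array. A second DTL probe set fell more in C42B (−0.51, adjusted p = 0.0037) and rose with DHT (0.24, adjusted p = 0.0062), where the brightest gave 0.01.

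CLSPN, claspin, which carries the checkpoint signal from ATR to CHK1 at stalled forks, rose with DHT. It was 7.85, 7.92, 7.86 and 7.93 with DHT, against 7.60, 7.62, 7.59 and 7.59 with vehicle (log2 fold change 0.29 ± 0.04, adjusted p = 0.00025 by limma). In C42B it was 7.27, 7.49 and 7.39 with siLSD1, against 7.72, 7.69 and 7.67 with siNTC (−0.31 ± 0.06, adjusted p = 0.017). That C42B fall missed the threshold without siLSD1 replicate 3 or siNTC replicate 1 or 2.

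Sorted by their calls in the 3 comparisons, the genes form 6 groups. The most frequent, 15 genes, passed lower with siLSD1 in both lines and did not pass with DHT. A further 9 passed lower with siLSD1 in both lines and higher with DHT, namely CDC45, GINS2, GINS3, POLA1, RFC3, FEN1, RRM2, SLBP and CLSPN. The ring subunits MCM2, MCM3 and MCM6 passed lower in all 3 comparisons. CDC6 and DBF4 passed lower in LNCaP only among the siRNA experiments and higher with DHT, PCNA passed lower in LNCaP and with DHT, and ORC6, CDT1, UNG and CHAF1B passed in LNCaP alone. These groups rest on thresholds, and a gene that missed one is not shown to be unchanged. The share of all genes with each combination of calls was not counted, so the group sizes describe the list only. The DHT calls of CDC45, GINS2, RFC3, SLBP, MCM2 and MCM3, which place them in their groups, were lost in some alternatives.

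The 28 further probe sets of 17 genes were read next. Counting those bright in at least 1 group, none gave a call opposite to that of the brightest, and 21 of 22 had the same sign as the brightest with siLSD1 in C42B, where 16 passed lower, and 19 of 20 in LNCaP, where 18 passed lower. The LNCaP probe sets that did not pass were 1 of MCM4 (−0.11) and 1 of GINS2 (0.06), of which only that of GINS2 differed in sign. In C42B the same MCM4 probe set had the opposite sign (0.17) and did not pass. In the difference between lines, 20 of 22 had the same sign as the brightest and 16 passed higher. The others were a GINS2 probe set (−0.24) and an RFC3 probe set (−0.38, adjusted p = 0.052 by limma), and neither passed. That RFC3 probe set fell by 0.61 in C42B and was dim in both LNCaP groups. For RFC3 the difference was 0.44 by the brightest probe set and 0.34 by another, which did not pass (adjusted p = 0.083). With DHT the signs matched for 17 of 24, and among the 24, 2 passed lower and 6 higher.

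**Figure D5:**
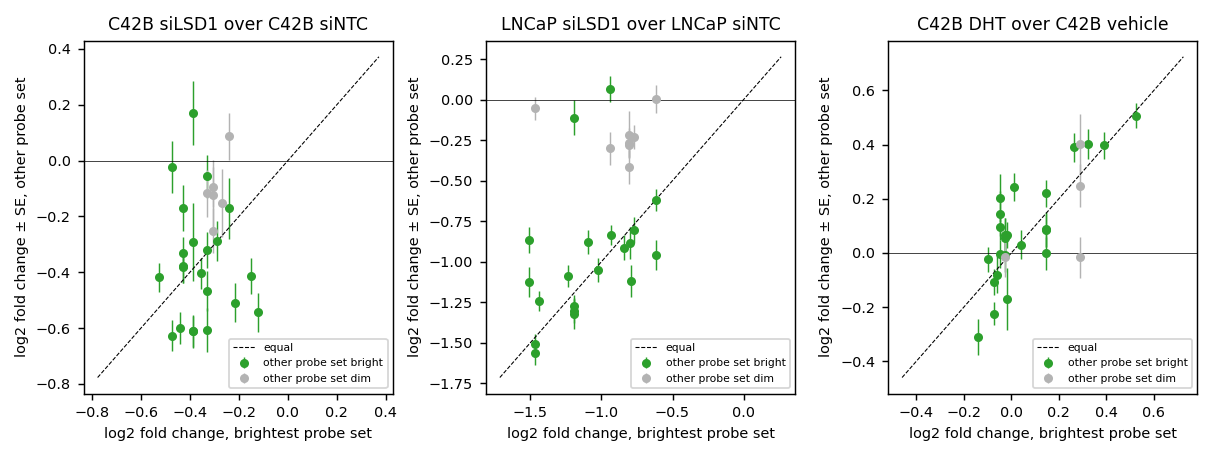
Log2 fold change of each further probe set (vertical) against that of the brightest probe set of the same gene (horizontal), for C42B siLSD1, LNCaP siLSD1 and C42B DHT, with limma SE and dim probe sets in grey. Of the bright ones, 21 of 22 and 19 of 20 are below 0 in the siRNA panels, and 17 of 24 share the sign of the brightest in the DHT panel.

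Members that fell together raise the question of what their promoters share. RefSeq promoter windows of 300 bases (250 before to 50 after the annotated start, build GRCh38.p14) were found for 32 of the 34 genes, MCM4 and MCM5 being the others. They were searched on both strands for 4 exact E2F words, TTTGGCGC, TTTCCCGC, TTTGCCGC and TTTCGCGC, whose matches can overlap. Several windows are listed for 7 of the 32 genes, up to 3 each, and a gene was counted once if any of its windows held a match. By that count 18 of 32 genes (56.2%) had a match, against 3.99% of 27305 genes in the table and 5.36% of 15384 genes on the array. Per window it was 19 of 42 (45.2%), against 3.31% of 35116 in the table. The following 6 all have a match and all passed with DHT, first the MCM ring subunits that fell and then genes that rose. They do not stand for the list. Genes without a match, such as RRM2 and FEN1, which also rose with DHT, are not printed, nor are genes that did not pass with DHT. Each is read 5′ to 3′ on the gene's strand with the matches in capitals.
MCM2 chr3:127598161-127598460 (+ strand): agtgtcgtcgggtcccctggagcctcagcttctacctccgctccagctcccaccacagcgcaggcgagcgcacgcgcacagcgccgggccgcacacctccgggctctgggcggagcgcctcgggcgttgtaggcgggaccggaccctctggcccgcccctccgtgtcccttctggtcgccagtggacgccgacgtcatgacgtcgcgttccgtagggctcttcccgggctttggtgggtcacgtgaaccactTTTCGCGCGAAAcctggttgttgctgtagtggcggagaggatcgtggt
MCM3 chr6:52284693-52284992 (− strand): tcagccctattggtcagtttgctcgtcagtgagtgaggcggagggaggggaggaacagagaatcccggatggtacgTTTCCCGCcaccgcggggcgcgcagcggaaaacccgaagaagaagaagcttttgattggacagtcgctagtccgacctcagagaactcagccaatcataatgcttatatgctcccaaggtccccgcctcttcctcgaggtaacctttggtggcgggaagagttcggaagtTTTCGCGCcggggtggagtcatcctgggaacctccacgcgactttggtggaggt
MCM6 chr2:135876394-135876693 (− strand): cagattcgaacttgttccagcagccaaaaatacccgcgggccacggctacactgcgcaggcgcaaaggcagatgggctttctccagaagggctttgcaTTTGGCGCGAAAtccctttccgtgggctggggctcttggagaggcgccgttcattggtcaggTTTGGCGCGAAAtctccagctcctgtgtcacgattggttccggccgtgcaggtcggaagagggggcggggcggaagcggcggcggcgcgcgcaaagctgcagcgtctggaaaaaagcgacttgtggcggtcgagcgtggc
CDC6 chr17:40287629-40287928 (+ strand): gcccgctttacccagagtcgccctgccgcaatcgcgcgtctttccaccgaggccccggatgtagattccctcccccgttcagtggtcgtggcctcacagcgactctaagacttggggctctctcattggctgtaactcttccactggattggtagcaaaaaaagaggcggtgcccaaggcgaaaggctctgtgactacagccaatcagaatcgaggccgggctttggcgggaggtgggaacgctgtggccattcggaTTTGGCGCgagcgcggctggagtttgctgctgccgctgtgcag
GINS3 chr16:58392221-58392520 (+ strand): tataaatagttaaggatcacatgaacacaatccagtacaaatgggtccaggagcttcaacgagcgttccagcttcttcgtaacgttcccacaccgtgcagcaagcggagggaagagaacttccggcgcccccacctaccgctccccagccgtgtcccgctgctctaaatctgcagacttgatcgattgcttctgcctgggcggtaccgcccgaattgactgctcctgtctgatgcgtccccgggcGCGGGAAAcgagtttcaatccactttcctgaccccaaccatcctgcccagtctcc
POLA1 chrX:24693668-24693967 (+ strand): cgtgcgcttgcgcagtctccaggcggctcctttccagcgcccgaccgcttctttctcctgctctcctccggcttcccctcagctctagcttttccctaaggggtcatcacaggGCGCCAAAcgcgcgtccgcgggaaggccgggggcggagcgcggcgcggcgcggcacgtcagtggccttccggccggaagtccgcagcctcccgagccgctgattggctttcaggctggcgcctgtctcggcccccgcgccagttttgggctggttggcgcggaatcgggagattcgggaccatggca

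In MCM2 and in both MCM6 blocks a forward word overlaps a word on the other strand, which joins them into a run of 12 bases. The MCM2, MCM3, CDC6 and GINS3 matches include 1 within 8 bases of the start, counted to the leftmost base as printed, whereas those of MCM6 are at −152, −148, −90 and −86 and that of POLA1 at −137 relative to it. Matches were found in 4 of the 4 genes that passed lower with DHT, in 6 of the 11 that passed higher and in 8 of the 17 others with a window. With siLSD1, the 18 genes with a match had a median log2 fold change of −0.30 in C42B and −0.92 in LNCaP, and the 14 without one −0.39 and −0.99. The ranges of both sets overlap in each comparison, and a match is a description of letters, not of bound factor.

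Other words give context. The CHR word (TTTGAA or TTCGAA), known from genes of G2 and mitosis, lay in a window of 4 of 32 genes (12.5%), against 13 of 17 mitotic genes (76.5%) and 19.5% of the genes in the table. CCAAT was found for 20 of 32 (62.5%), against 39.7% of those genes. Among 45 other replication genes with a window, 15 (33.3%) had an E2F word, as did 1 of 17 mitotic genes (5.88%).

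Further replication genes, 58 by name and 56 measured, moved with the 34 in the siRNA experiments. In C42B, 34 passed lower and 1 higher with siLSD1 (median log2 fold change −0.28), where 9.39% of all genes passed lower and 8.66% higher. The falls were led by the histone chaperone ASF1B (−0.72), the firing factor TICRR (−0.67) and GINS4, a further GINS subunit (−0.62). RRM2B, the p53-inducible small subunit of ribonucleotide reductase, was the 1 that rose (0.73 ± 0.11, adjusted p = 0.0039 by limma), opposite to its paralog RRM2. In LNCaP, 41 passed lower and 4 higher (median −0.57), where 12.5% of all genes passed lower and 13.4% higher. The largest falls there were WDHD1, which couples helicase and polymerase alpha (−1.45), GINS4 (−1.40) and ASF1B (−1.40).

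The LNCaP rises were RPA1, the large subunit of the single-strand binding protein RPA (0.64 ± 0.05, adjusted p = 9.1e-05 by limma), RRM2B (0.31), ORC5 (0.21) and POLD4 (0.19). That count of 4 fell to 1 without siLSD1 replicate 3 and to 2 without siLSD1 replicate 1 or 2 or siNTC replicate 2 or 3. RPA1 in C42B was −0.14 ± 0.05 (adjusted p = 0.11), and the difference between the lines passed (−0.78 ± 0.07, adjusted p = 4.1e-05), as did that of RNASEH2B, a subunit of ribonuclease H2 (−0.60 ± 0.13). In the contrast 27 of the 56 passed higher and these 2 lower, where 5.56% of all genes passed higher and 6.06% lower. The largest positive differences were those of WDHD1 (1.01), GINS4 (0.78) and TK1, thymidine kinase (0.78).

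With DHT, 13 of the 56 passed lower and 5 higher (median log2 fold change −0.04), where 19.4% of all genes passed lower and 13.4% higher, and the lower count fell to 7 without DHT replicate 3. The dNTP hydrolase SAMHD1 (−0.41), RNASEH2B (−0.30) and the chromatin remodeller HELLS (−0.27) fell most. ORC5, an origin recognition subunit (0.48 ± 0.05, adjusted p = 4.4e-05 by limma), GMNN, geminin, the inhibitor of CDT1 (0.36 ± 0.04, adjusted p = 0.00019), and ASF1B (0.21) rose most. CDC6 and geminin, which act for and against licensing, were both higher with DHT.

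Mitotic genes, which act later in the cycle, are given beside the replication genes because transcripts of both lists mark proliferating cells. With siLSD1, 18 of 20 passed lower in C42B (median log2 fold change −0.45), where 9.39% of all genes did. In LNCaP 20 of 20 passed lower (−1.30), where 12.5% of all genes did, and all 20 fell more in LNCaP (median difference 0.82). With DHT, 2 passed lower and 1 higher (median −0.06), where 19.4% of all genes passed lower and 13.4% higher. Their part in the replication gene results was not tested.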

How the data were processed

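RMA and affy made the authors' intensity values, per the submitters' processing notes, which were deposited on a linear scale and turned into log2 here. Neither versions nor the arrays normalized together are stated in the sources used. Of 54675 probe sets, 62 are controls, 41091 name 1 gene, 1801 name several and 11721 are unnamed here. For each of 19775 genes the probe set with the highest mean over the 20 arrays was used, and genes without a 1-gene probe set were not analysed here. A group mean below 6 was called dim, and no gene was removed.

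The arrays of each comparison were fitted on their own in limma 3.58.1 (R 4.3.3) with lmFit, then eBayes, two-sided, with Benjamini-Hochberg adjustment over all genes and a threshold of 0.05. The difference between lines was a contrast over the 12 siRNA arrays. Values after ± beside a fold change are SEs, and those beside a mean are SDs. The fit was checked on simulated data. Counts and promoter words were computed with Python 3.11.15, and figures with matplotlib 3.10.9. Promoter sequences come from RefSeq (GRCh38.p14).

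The members and lists were chosen with earlier results of these data known. The genes named are all 34 members, the targeted gene, the 3 largest falls and rises among other replication genes that passed, and any marker that passed. The LNCaP rise of POLD4 was named after its value was seen. The kits used for labelling, taking 2 µg or 200 ng of RNA, are not tied to samples in the labels and could not be used as a term. The number of arrays limits the precision. Replicate numbers were not used to pair the arrays in the main fit. Same-numbered arrays correlated at −0.15 to 0.26 around their group means. The highest correlation with a differently numbered array was −0.10 to 0.30. With so few arrays per group these values cannot decide whether the numbers mark pairs. Alternatives were leaving out single arrays, a replicate block, 1 fit of all 20 arrays, trend and robust options of eBayes, and median centring. Others were quantile normalization, a filter that kept bright genes and, per gene, the mean of its probe sets. A last alternative tested every probe set, which changed the adjusted p-values, but each gene was still read from its brightest probe set. The further probe sets, read singly, were thus not among the alternatives and are described apart.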

Additional observations from a re-analysis of the deposited data

Results flagged for a closer look

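The siLSD1 effects of 30 genes differed between the lines by the contrast C42B minus LNCaP (limma adjusted p under 0.05), with the larger fall in LNCaP for 29 of them. CLSPN is the other, and its direction is not settled because its LNCaP siLSD1 level was dim. In origin recognition and licensing the differences on the log2 scale were 0.62 for ORC1, 0.67 for ORC6, 1.08 for CDC6 and 0.67 for CDT1. The ring subunits gave 0.51 for MCM2, 0.49 for MCM3, 0.80 for MCM4, 0.57 for MCM5, 0.54 for MCM6 and 0.50 for MCM7. Helicase activation gave 1.08 for MCM10, 0.63 for CDC45, 0.96 for GINS1, 0.70 for GINS2, 0.51 for GINS3 and 0.93 for DBF4. Among the fork enzymes PRIM1 gave 0.44, POLE2 0.59, PCNA 0.83, RFC3 0.44, RFC4 0.61 and FEN1 1.01. Nucleotide supply gave 0.49 for RRM1, 0.59 for RRM2 and 1.00 for TYMS. Chromatin and checkpoint genes gave 0.29 for CHAF1A, 1.03 for UHRF1, 0.32 for SLBP, 1.25 for DTL and a fitted 0.50 for CLSPN. The call of CHAF1A was lost without C42B siLSD1 replicate 2 (adjusted p = 0.057) or C42B siNTC replicate 1 (adjusted p = 0.055). That of CLSPN was lost without any 1 of 5 arrays (adjusted p = 0.051 to 0.061), namely replicates 2 and 3 of C42B siLSD1, replicate 3 of C42B siNTC, replicate 1 of LNCaP siLSD1 and replicate 3 of LNCaP siNTC. With the mean of all probe sets, CLSPN (0.20, adjusted p = 0.17) and RFC3 (0.13, adjusted p = 0.27) missed the threshold. A further RFC3 probe set, dim in both LNCaP groups, gave −0.38 (limma adjusted p = 0.052).

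In 4 of 70 groups of 4 arrays, a single array stood apart by Dixon's ratio of its gap to the group's range, above its 95% critical value, which chance exceeds in about 1 of 20 groups. CDT1 was 9.01 in DHT replicate 4, against 8.73 to 8.75 in the other DHT arrays (ratio 0.929). MCM10 was 10.39 in DHT replicate 2, against 10.24 to 10.25 in the others (0.934), and 10.26 in vehicle replicate 1, against 10.37 to 10.39 (0.869). FEN1 was 12.33 in DHT replicate 2, against 12.25 in each of the others (0.906).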

How the results depend on the processing

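No passing result changed sign under any alternative. In C42B siLSD1 the number of the 34 genes passing lower was 24 to 31 under the 8 other settings and 22 to 26 when single arrays were left out, and in LNCaP siLSD1 it was 34 throughout. With DHT, 3 to 6 passed lower and 9 to 11 higher under other settings, and leaving out single arrays gave 2 to 5 lower and 8 to 11 higher. The difference between lines gave 28 to 31 genes under both kinds of alternative. With the replicate block, 26 genes passed in C42B, 34 in LNCaP, 4 lower and 10 higher with DHT, and 29 in the difference. The block took the LNCaP count of rising other replication genes from 4 to 2 and changed the calls of GINS3, DTL and CHAF1B in C42B, GINS2 with DHT and CHAF1A in the difference. KDM1A with DHT kept a log2 fold change of 0.16 with all 20 arrays in 1 fit but missed the threshold (limma adjusted p = 0.064), and leaving out arrays gave 0.13 to 0.17. The KDM1A difference between lines passed at 0.37 with bright genes only, with eBayes trend and robust and with all 20 arrays, and at 0.41 with median centring. Leaving out single arrays gave 0.30 to 0.43, passing without LNCaP siNTC replicate 1. The causes were not tested. Mitotic genes passing lower with DHT numbered 1 to 5. Arrays have no counts, so dim signals such as CLSPN in LNCaP limit what can be measured.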
